A study of Mus musculus with 8 samples.

Results

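Mediator is the large protein complex that carries signals from DNA-bound transcription factors to RNA polymerase II. Its head, middle and tail modules are held together on the Med14 scaffold and form the core. A separate kinase module, made of the kinase Cdk8 or its paralog Cdk19, cyclin C (Ccnc), Med12 or Med12l and Med13 or Med13l, binds the core reversibly and keeps it from engaging the polymerase while attached. In liver, Mediator is known as the meeting point for nuclear receptors, sterol regulatory factors and forkhead factors, and Cdk8 is known for marking nuclear SREBP for degradation.

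The genes described here are all those whose symbol is Med followed by a number, with or without a final l, together with Ccnc, Cdk8 and Cdk19. They are 33 of the 55487 genes of the count tables, 7 of the kinase module and 26 of the core, and all 33 passed the filter on low counts. The family was chosen on the measured counts of 1 member, since Med12 was lower in Mc1r LKO livers in this same contrast, while the other 32 genes entered by symbol alone. Values of Med12 are therefore given as a description, without a test. The question was whether the lower level of Med12 extended to the rest of its module or to the core.

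RNA sequencing covered the livers of control mice 154, 159, 181 and 193 (n = 4) and of Mc1r LKO mice 141, 156, 157 and 182 (n = 4). Control mice carried the floxed Mc1r allele (Mc1r fl/fl), and Mc1r LKO mice carried it with Alb-Cre. In Alb-Cre the albumin promoter drives Cre in hepatocytes, and whether other liver cells kept the gene was not measured. All mice were male and were fed a cholesterol-rich Western diet for 12 weeks from 8 weeks of age. Whole liver was measured, so fewer cells of a type and less RNA per cell cannot be told apart. Mc1r had 0 counts in every mouse, and the genotypes were not checked against it.

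Between 10773151 and 24763375 counts fell on genes in each mouse, and the Mediator genes held between 0.0478% and 0.0518% of them. Mice 181 (control) and 182 (Mc1r LKO) stood apart from the other 6 on the first principal component, which held 37.6% of the variance. Values without both are therefore given where they change a call or a direction of a Mediator gene. They are also given where a call near Med12 or in the machinery lists was lost. Control mouse 159 stood apart on the second component, which held 16.9% of the variance, and had the fewest counts (10773151). Levels are given in CPM, the counts of a gene scaled by TMM to one common library size, and the fold change, its standard error (SE) and 95% interval come from edgeR's quasi-likelihood fit over 13400 genes. A gene was called where the unadjusted p was under 0.05 and the log2 fold change was at least 0.25 in size. With these limits 5.31% of all genes tested were called, 2.66% as lower, and 0% passed a Benjamini-Hochberg adjusted p of 0.05 in edgeR, although 901 had an unadjusted p under 0.05. DESeq2 placed 16 genes under that adjusted p and limma-voom 0, none of them a Mediator gene.

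The sequences before the starts of 3 genes of the kinase module are shown because they belong to Med12, to Med13l, which was lower beside it, and to its paralog Med13, which was not. Cdk19, which was also called as lower, had no window in the promoter set used. The 3 sequences are therefore not the full set of lower genes. Shown are the bases upstream of both the RefSeq start and the start in the count tables' annotation, 5′ to 3′, in build GRCm38.p6, and capitals mark GC boxes (GGGCGG on either strand).
Med12, chrX:101273841-101274029, plus strand: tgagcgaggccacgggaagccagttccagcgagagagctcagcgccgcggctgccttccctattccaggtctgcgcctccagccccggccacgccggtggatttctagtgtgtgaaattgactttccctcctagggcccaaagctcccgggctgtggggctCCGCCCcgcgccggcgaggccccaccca
Med13, chr11:86357603-86357846, minus strand: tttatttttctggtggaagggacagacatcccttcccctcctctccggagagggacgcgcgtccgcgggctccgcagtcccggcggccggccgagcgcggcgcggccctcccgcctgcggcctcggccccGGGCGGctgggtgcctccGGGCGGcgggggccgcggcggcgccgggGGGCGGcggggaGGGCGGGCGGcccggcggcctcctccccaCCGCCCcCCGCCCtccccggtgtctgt
Med13l, chr5:118560469-118560678, plus strand: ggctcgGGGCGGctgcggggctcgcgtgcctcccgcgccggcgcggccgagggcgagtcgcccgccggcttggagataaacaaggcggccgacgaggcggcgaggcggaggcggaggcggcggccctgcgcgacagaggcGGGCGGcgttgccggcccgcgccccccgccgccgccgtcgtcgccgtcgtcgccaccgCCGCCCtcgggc

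In the 250 bases before the RefSeq start, the GC box matched 1 time at Med12, 3 times at Med13l and 7 times at Med13, with matches that overlap counted separately. Across the 32 windows that RefSeq gives for 28 of the 33 Mediator genes, 20 held a GC box, against 32.7% of 32851 windows of all genes. The CCAAT box (CCAAT) was in 12 of the 32 windows and in 33.8% of all windows, the ETS motif (CCGGAAG) in 6 and in 6.91%, and the TATA box (TATAAA) in 3 and in 12.4%, each read on both strands. Neither Med12, Med13 nor Med13l had a CCAAT box, an ETS motif or a TATA box in its window. The number of CpG dinucleotides in the window was 22 at Med12, 37 at Med13 and 51 at Med13l. Its median was 15 over the Mediator windows and 6 over all windows, which were not limited to genes that passed the filter on low counts. These matches describe the letters and not bound sites.

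Besides Med12, 2 of the other 6 kinase module genes, Cdk19 and Med13l, were lower and called in Mc1r LKO livers, beside 2.66% of all genes called as lower. Cdk8 was lower without passing the test. Ccnc and Med12l were higher without passing it, and Med13 was at 0.03, with a direction that turned when mouse 182 was left out and under other settings given with its values. The median log2 fold change was -0.17 over the 7 genes and -0.066 without Med12, beside -0.011 over all genes tested, of which 52.1% were lower. All 7 genes have exon lengths of 5115 bases or more. Among all genes tested with exon lengths of 5089 to 7406 bases, the median was -0.04 and 60.6% were lower. Among those of 7407 bases or more, it was -0.08 and 69.8% were lower. The part of length in the median of the module was not tested. The core had a median of 0.046, with 16 genes higher and 10 lower.

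Med12 bridges cyclin C and Med13 and switches on the kinase. The gene (ENSMUSG00000079487) lies on the plus strand of chromosome X from 101274030 to 101297465 (GRCm38) and has 43 separate exon stretches that sum to 7704 bases. Its levels were 19.7, 20.2, 24.9 and 19.5 CPM in control mice 154, 159, 181 and 193, and 14.0, 15.5, 13.5 and 16.4 CPM in Mc1r LKO mice 141, 156, 157 and 182. Every Mc1r LKO mouse was below every control mouse, and the highest control, mouse 181, stood apart from the other 3.
The mean was 21.1 ± 2.56 CPM in control and 14.8 ± 1.31 CPM in Mc1r LKO mice (SD, n = 4 each), from between 202 and 477 counts per mouse. The log2 fold change was -0.51 (SE 0.11, 95% interval -0.76 to -0.25), which is a level 29.6% lower. It was -0.41 without mouse 181 and -0.46 without mice 181 and 182. The SE and interval are a description and not a test, because the family was chosen on the counts of Med12. Of its exon bases, 749 (9.72%) are shared on the same strand with Gm21986, whose own counts were 0 to 4 in control and 0 to 6 in Mc1r LKO mice.

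Med12l, the paralog that can take the place of Med12, had the lowest level of the Mediator genes per kilobase of exon in both groups. It gave 1.81, 0.930, 2.66 and 1.22 CPM in the control mice and 2.63, 2.86, 2.10 and 2.40 CPM in the Mc1r LKO mice, from 10 to 52 counts per mouse. All 4 Mc1r LKO mice were above the control mean, but control mouse 181 lay inside their range.
The log2 fold change was 0.57 (SE 0.33, 95% interval -0.16 to 1.29, edgeR adjusted p = 0.8003). Without control mouse 181 it was 0.89 and passed the unadjusted limit (edgeR adjusted p = 0.757), and without both 181 and 182 it was 0.91. Per kilobase of exon, Med12 made up 95.6% ± 1.52 of the Med12 and Med12l signal in control mice and 90.8% ± 1.03 in Mc1r LKO mice (SD, n = 4 each). The share was 94.8, 97.3, 93.9 and 96.3% in the control mice and 89.8, 89.96, 91.4 and 91.9% in the Mc1r LKO mice, so the groups did not overlap. Since Med12 chose the family, this difference is a description.

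Of the 2 kinases, Cdk19 was called and Cdk8 was not, and the difference between them was not tested. Cdk19 (ENSMUSG00000038481, chromosome 10 from 40339564 to 40483818) was at 7.76, 9.58, 8.18 and 8.64 CPM in the control mice and at 6.78, 6.37, 7.23 and 4.65 CPM in the Mc1r LKO mice. All Mc1r LKO mice were below all controls, with mouse 182 the lowest. Cdk19 fell by 0.45 on the log2 scale (SE 0.17, 95% interval -0.82 to -0.07, edgeR adjusted p = 0.734), a level 26.6% lower.
The call was lost when mouse 159 (-0.38), 193 (-0.43) or 182 (-0.32) was left out, and when 181 and 182 were left out together (-0.34). Cdk8 (chromosome 5 from 146231230 to 146302874), the better known kinase, was at 30.0, 25.0, 29.9 and 22.6 CPM in the control mice and at 22.7, 22.0, 20.8 and 30.4 CPM in the Mc1r LKO mice. The Mc1r LKO mice other than 182 lay near or under the lowest control, and mouse 182 was the highest of all 8.
The log2 fold change of Cdk8 was -0.17 (SE 0.14, 95% interval -0.48 to 0.15, edgeR adjusted p = 0.884). Without mouse 182 it was -0.30 and passed the unadjusted limit (edgeR adjusted p = 0.597). Cdk8 made up 65.0% ± 4.80 of the pair per kilobase of exon in control and 69.1% ± 7.16 in Mc1r LKO mice, with overlapping ranges. The share depends on the length used, and by the length of 1 coding transcript it was 85.8% ± 2.55 and 87.9% ± 3.38. Cdk19 and Cdk8 are close paralogs, and read pairs common to both could be lost or split in the counting.

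Med13 and Med13l link the module to the core. Med13l (ENSMUSG00000018076, chromosome 5 from 118560679 to 118765438) was at 13.9, 13.0, 11.9 and 13.2 CPM in the control mice and at 10.7, 12.0, 10.95 and 9.91 CPM in the Mc1r LKO mice. All Mc1r LKO mice were below the control mean, but mouse 156 lay just above control mouse 181. Med13l fell by 0.26 on the log2 scale (SE 0.11, 95% interval -0.50 to -0.01, edgeR adjusted p = 0.735), close to both limits.
Its call was lost without any single one of control mice 154 (-0.22), 159 (-0.25) and 193 (-0.24), or of Mc1r LKO mice 141 (-0.24), 157 (-0.25) and 182 (-0.21), without 181 and 182 together (-0.25), with DESeq2 (-0.26), with upper quartile scaling (-0.26), without a filter (-0.25) and with 1 surrogate variable (-0.23). Med13 (chromosome 11 from 86267033 to 86357602, minus strand) was at 27.9, 27.8, 34.9 and 27.5 CPM in the control mice and at 28.1, 24.5, 26.4 and 41.9 CPM in the Mc1r LKO mice. Mice 181 and 182 were the highest of their groups, and the others lay together.
The log2 fold change of Med13 was 0.03 (SE 0.17, 95% interval -0.34 to 0.41, edgeR adjusted p = 0.985). It was -0.16 without mouse 182, -0.07 without 181 and 182, -0.07 with 1 surrogate variable and -0.02 with library size as the only scaling, none of them past the test. Med13 made up 76.2% ± 3.02 of the pair per kilobase of exon in control and 79.1% ± 4.81 in Mc1r LKO mice, again overlapping (62.5% ± 4.00 and 66.5% ± 6.66 by coding transcript).

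Cyclin C activates both kinases. Ccnc (chromosome 4 from 21727701 to 21759922) was at 17.7, 14.9, 17.04 and 16.9 CPM in the control mice and at 16.1, 17.7, 17.2 and 20.1 CPM in the Mc1r LKO mice, with overlapping ranges. The log2 fold change was 0.10 (SE 0.10, 95% interval -0.13 to 0.33, edgeR adjusted p = 0.907).

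**Figure D1:**
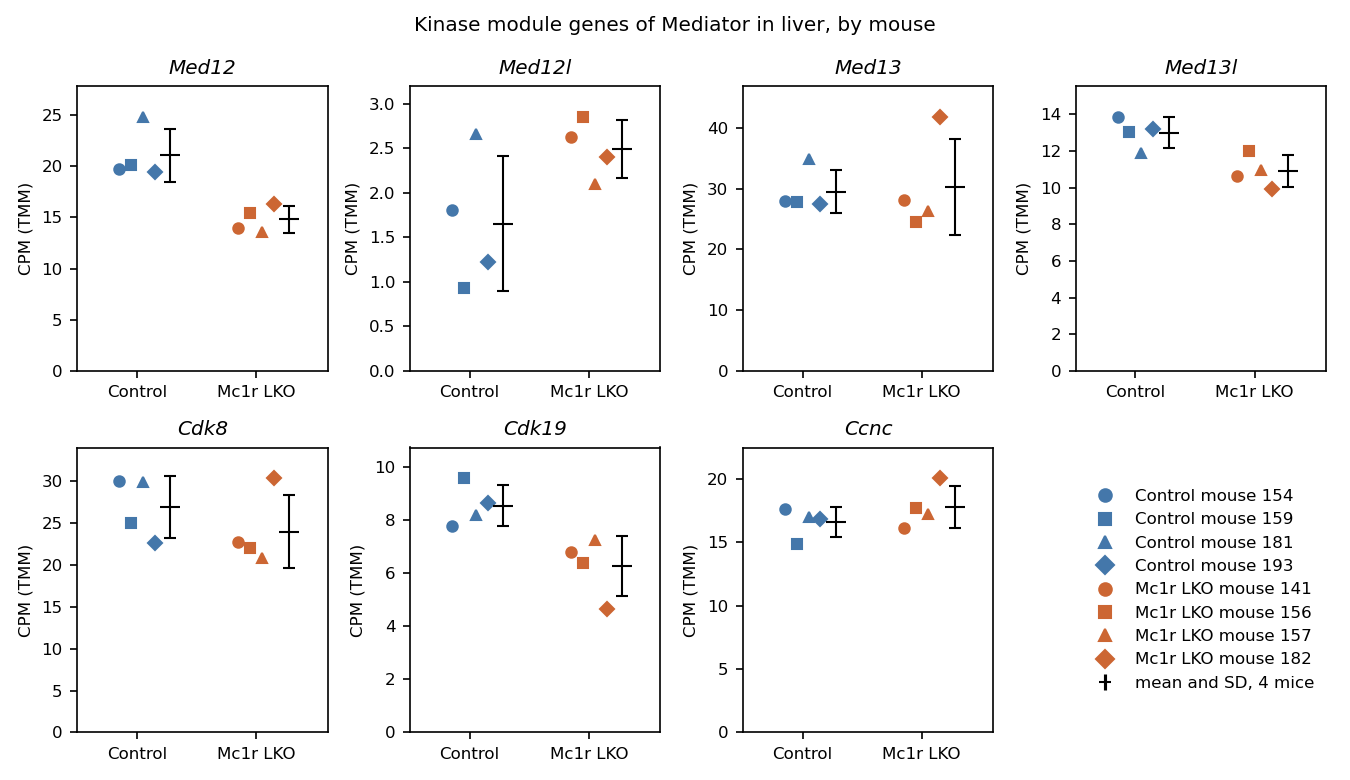
Level of each kinase module gene in each mouse (vertical axis, CPM after TMM scaling, from 0; 1 symbol per mouse, bars are mean and SD of 4 mice per group). Med12 and Cdk19 are lower in every Mc1r LKO mouse than in every control mouse, while mouse 182 is the highest of all mice for Cdk8, Med13 and Ccnc.

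The positions of the module that can be filled by either of a pair can be compared by summing the pair per kilobase. Med12 with Med12l gave 2.703, 2.69, 3.44 and 2.62 CPM per kilobase of exon in the control mice and 2.02, 2.23, 1.92 and 2.31 in the Mc1r LKO mice, which did not overlap. The mean was 2.86 ± 0.384 in control and 2.12 ± 0.181 in Mc1r LKO mice (SD, n = 4 each). The sum had the pattern of Med12, which made up most of it.
Cdk8 with Cdk19 gave 4.196 ± 0.301 CPM per kilobase in control and 3.51 ± 0.258 in Mc1r LKO mice, which overlapped through mouse 182 (3.88) and control mouse 193 (3.78). Med13 with Med13l gave 3.57 ± 0.282 and 3.49 ± 0.683, and Ccnc alone 3.25 ± 0.236 and 3.48 ± 0.327. The 4 positions were within 2.86 to 4.196 CPM per kilobase in control mice, beside a median of 3.497 ± 0.170 over the core genes. This closeness depends on the length used, since by the length of 1 coding transcript the Med12, Med13, cyclin and kinase positions stood at 3.25, 4.47, 4.94 and 10.5 CPM per kilobase in control mice, beside a core median of 6.29. The Med12 position was the lowest in both groups. In Mc1r LKO mice it was at 0.741 of its control level, while the other 3 stood at 0.836, 0.980 and 1.07 of theirs. By coding transcript these ratios were 0.744 for the Med12 position and 0.869, 0.954 and 1.07 for the kinase, Med13 and cyclin positions.

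In the core, 1 of 26 genes was called, beside 5.31% of all genes tested and 2.64% called as higher, and 1 more passed the p limit alone. Neither passed the adjusted limit. Med7, a subunit at the hinge of the middle module, was at 11.4, 11.4, 15.3 and 11.9 CPM in the control mice and at 15.3, 15.1, 15.3 and 16.2 CPM in the Mc1r LKO mice. Control mouse 181 lay among the Mc1r LKO mice and the other controls lay below them. Med7 rose by 0.30 on the log2 scale (SE 0.12, 95% interval 0.04 to 0.57, edgeR adjusted p = 0.734).
The Med7 call was lost without control mouse 154 (0.26), 159 (0.27) or 193 (0.29) and without Mc1r LKO mouse 157 (0.32) or 182 (0.28). Med16, a tail subunit, was at 23.7, 26.2, 23.4 and 23.4 CPM in the control mice and at 18.7, 21.6, 19.5 and 21.9 CPM in the Mc1r LKO mice, and every Mc1r LKO mouse was below every control. Its log2 fold change was -0.24 (SE 0.09, 95% interval -0.45 to -0.04, edgeR adjusted p = 0.734), just under the limit on the fold change.
Med16 passed that limit without mouse 181 (-0.26), 193 (-0.25), 156 (-0.27) or 182 (-0.27), without 181 and 182 together (-0.28), and with library size alone as the scaling (-0.29). It no longer passed the p limit without mouse 159 (-0.20), 141 (-0.20) or 157 (-0.21) and without a filter (-0.24).

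Of the 32 genes other than Med12, 3 were called, 2 lower and 1 higher, beside 5.31% of all genes tested. Med12 is left out of this count because its own counts chose the family. Besides Med12, the groups did not overlap in 2 of the other 32 genes, Cdk19 and Med16, both lower, and in 0 were they higher. Over all genes tested the groups did not overlap in 4.16%, and in 1.54% with Mc1r LKO lower. By adjusted p, 0 of 33 passed in edgeR (smallest 0.734) and in limma-voom. None passed in DESeq2 either, which gave no adjusted p to some genes, Med12l, Med18, Med26, Med27, Med30 and Med31 among them. Of the 32 genes other than Med12, 4 had an unadjusted p under 0.05 in edgeR, beside 901 of all 13400 genes tested.

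The head, which contacts the polymerase, had 8 genes higher and 3 lower with a median log2 fold change of 0.13. None of the 11 was called. Med27 (0.42, 95% interval -0.04 to 0.87), Med8 (0.17, -0.02 to 0.37) and Med6 (0.30, -0.06 to 0.66) came nearest to the limits, and Med27 was called without mouse 157 (0.55) and Med6 without mouse 181 (0.40) or without 181 and 182 together (0.43). Med29 (0.18), Med28 (0.18), Med17 (0.13), Med20 (0.05) and Med11 (0.03) were higher, and Med30 (-0.03), Med22 (-0.08) and Med18 (-0.41, 95% interval -1.05 to 0.24) were lower, all without passing the test. Without mice 181 and 182, Med30 was at 0.05. Med18 was measured by 16 to 58 counts per mouse.

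The middle had 7 genes higher and 2 lower, with a median of 0.13. Besides Med7, Med21 (0.23, 95% interval -0.04 to 0.50), its partner in the hinge, was called only without mouse 141 (0.31). Med10 (0.21), Med19 (0.14), Med9 (0.13), Med4 (0.05) and Med31 (0.05) were higher and did not pass the test, and Med31 was at -0.07 without mice 181 and 182. Med26 (-0.10), which recruits elongation factors, and Med1 (-0.13, 95% interval -0.45 to 0.20), the main contact of nuclear receptors, were lower and did not pass it either.

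The tail, which receives most activators, had 4 genes lower and 1 higher, with a median of -0.11. Med15, the contact of SREBP factors, had a log2 fold change of -0.19 (95% interval -0.39 to 0.02), and all 4 Mc1r LKO mice were below the control mean. Med23 (-0.11), Med25 (-0.06) and Med24 (0.03) did not pass the test. Where Med27, Med28, Med29 and Med30, whose place between head and tail is drawn differently, were moved to the tail, its median was -0.026 with 4 genes higher and 5 lower, and that of the head was 0.048. Med14, the scaffold, was at -0.08 (95% interval -0.30 to 0.15).

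**Figure D2:**
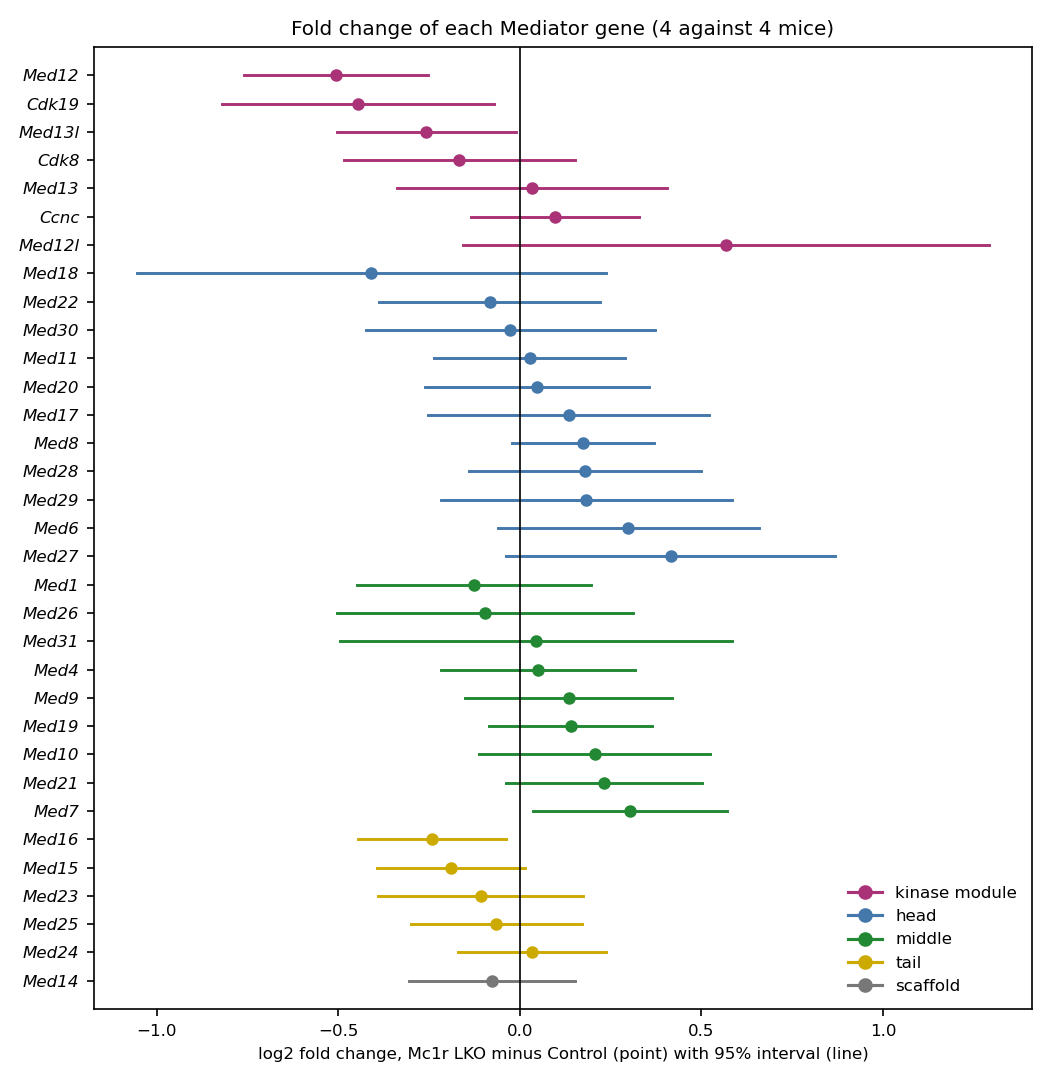
Fitted log2 fold change of each of the 33 Mediator genes, Mc1r LKO minus control (horizontal axis; points), with its 95% interval (lines), grouped by module. Apart from Med12, the intervals of Cdk19, Med13l and Med16 lie below 0 and that of Med7 above 0. Those of the other genes cross 0. The interval of Med12, whose counts chose the family, is drawn only as a description.

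Summed over the module, the kinase genes gave 119, 111, 129 and 110 CPM in the control mice (mean 117 ± 9.02) and 101, 101, 98.2 and 126 CPM in the Mc1r LKO mice (106 ± 12.9). Of the Mc1r LKO mice, 3 lay below all controls and mouse 182 lay above 3 of the 4 controls. Without Med12 the sums were 96.2 ± 6.84 in control and 91.6 ± 11.8 in Mc1r LKO mice. The core genes summed to 381 ± 6.999 and 389 ± 15.2 CPM (SD, n = 4 each), and the groups overlapped for each of these sums. Across the 7 kinase genes, the median deviation from the mean of all mice was 0.24 in mouse 181 and 0.23 in mouse 182 on the log2 scale, and between -0.18 and 0.10 in the other 6 mice. Over the core genes the same measure was between -0.028 and 0.079 in all 8 mice.

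Levels of the Mediator genes per kilobase of exon spanned 9.74 to 0.130 CPM per kilobase in control mice. The head genes Med11 (9.74 ± 0.732), Med8 (9.34 ± 0.713) and Med22 (8.53 ± 1.57) were highest, and Med18 (0.878 ± 0.217), Med13l (0.842 ± 0.0538) and Med12l (0.130 ± 0.0597) lowest. In CPM, Med11 was at 10.9, 9.20, 10.7 and 9.95 in the control mice and at 10.5, 10.2, 11.4 and 9.50 in the Mc1r LKO mice, which lay together. Med8 was at 26.4, 26.5, 31.0 and 28.3 CPM in the control mice and at 30.4, 31.4, 30.4 and 34.3 CPM in the Mc1r LKO mice, which overlapped.
In this order, 30 of the 32 pairs of neighbouring genes overlapped over the control mice, and only Cdk19 against Med27 and Med13l against Med12l did not. The kinase genes other than Med12l lay between ranks 15 (Ccnc, 3.25) and 32 (Med13l), and Med12 had rank 19 of 33 in control mice and rank 24 in Mc1r LKO mice. The order depends on the length used, since the exon length of a gene counts every annotated exon. By the coding transcript with the longest coding sequence (GENCODE vM21), 5 of the 10 highest genes were shared, Med22, Med8 and Med11 were again the first 3, and Med12l and Med18 again had the lowest levels.

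**Figure D3:**
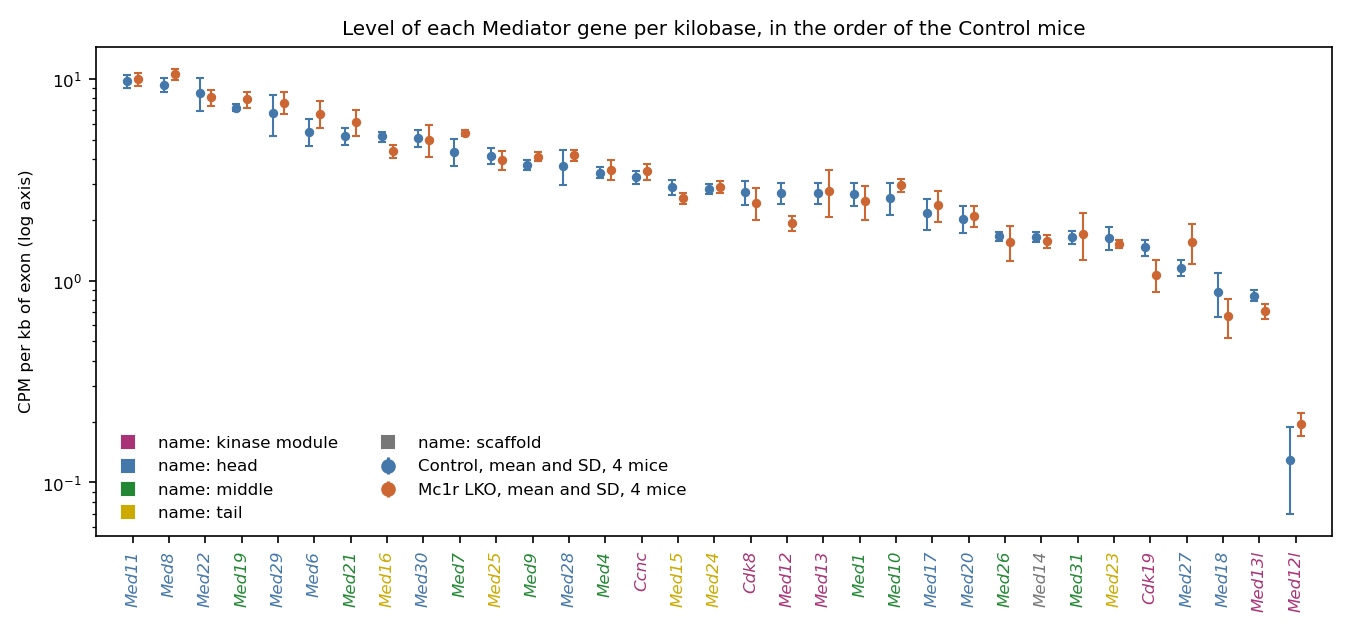
Level of each Mediator gene in CPM per kilobase of exon (vertical axis, log scale; points are means and bars SDs of 4 mice), in the order of the control mice, with gene names coloured by module. Levels run from 9.74 for Med11 to 0.130 for Med12l, and only Med12l lies far from its neighbours.

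Long genes were lower more often than short genes, over the whole table and among the Mediator genes. Over all genes tested, with 5 bins of exon length holding 2680 genes each, the median log2 fold change ran from 0.10 in the shortest through 0.03, -0.01 and -0.04 to -0.08 in the longest, and the share of lower genes from 35.0% to 69.8%. Of the 9 Mediator genes in the bin of the longest, Med12 among them, 7 were lower (median -0.13), and of the 8 in the bin of the shortest 2 were lower (median 0.09). The correlation of log2 exon length with log2 fold change was r = -0.25 and rho = -0.37 over the 33 Mediator genes, beside r = -0.19 and rho = -0.26 over all 13400 genes, which share the same 8 libraries.
The median level of the longest bin against the shortest, relative to the mean of all mice, was 0.13, -0.09, 0.20 and 0.08 on the log2 scale in the control mice and -0.12, -0.15, -0.10 and 0.01 in the Mc1r LKO mice, so the groups overlapped. The part of gene length in the values of the Mediator genes was not tested.

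**Figure D4:**
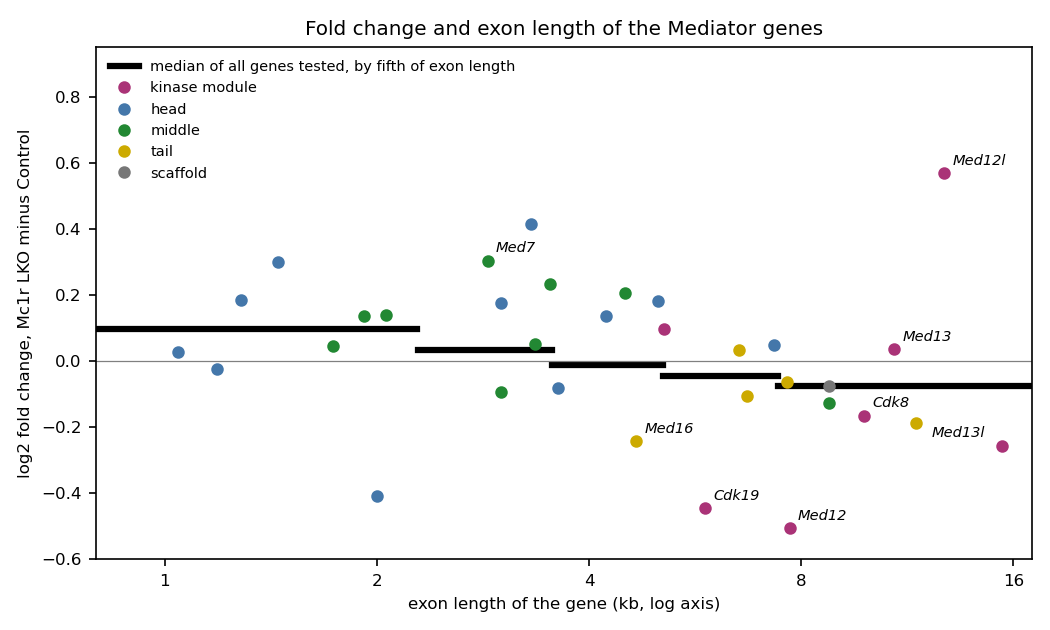
Fitted log2 fold change, Mc1r LKO minus control, of the 33 Mediator genes (points, coloured by module) against exon length (horizontal axis, kb, log scale), with the median of all genes tested in each of 5 bins of exon length (black bars, drawn only within the range of the axis). The bars step down from 0.10 to -0.08, and Med12, at -0.51, and Med12l, at 0.57, are the lowest and the highest of the points.

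Med12 was also set beside its neighbours on chromosome X. Within 500 kb of its ends lie 33 other genes of the tables, of which 9 passed the filter, and 5 of them were higher and 4 lower (median 0.03). Only Ogt, which adds O-GlcNAc to nuclear proteins and lies 342.6 kb away, was called, as lower. Over all genes tested, 5.31% were called and 2.66% as lower. Ogt was at 86.2, 96.6, 96.7 and 82.9 CPM in the control mice and at 81.5, 81.9, 67.1 and 74.1 CPM in the Mc1r LKO mice. The groups did not overlap, beside 1.54% of all genes tested with Mc1r LKO lower and no overlap.
The log2 fold change of Ogt was -0.25 (SE 0.10, 95% interval -0.46 to -0.04, edgeR adjusted p = 0.734), and 4 of the 8 fits without 1 mouse kept the call (-0.29 to -0.19). The call was lost without mouse 157, 159, 181 or 182, and without 181 and 182 together (-0.20). The nearest genes that passed the filter, Il2rg (-0.37, 95% interval -1.39 to 0.65) and Foxo4 (0.08, -0.15 to 0.31), did not pass the test.

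Genes of the machinery that Mediator works with were counted from lists of known members. Fold changes over all genes tested shifted with exon length, as given above, and the part of length in these lists was not tested. Of 12 RNA polymerase II subunits, 11 were higher and 1 lower, with a median of 0.13, beside 52.1% lower over all genes tested, and 2 were called, both higher, beside 2.64% of all genes called as higher. Polr2i rose by 0.34 (edgeR adjusted p = 0.734), with the call lost without mouse 141 (0.28) or 154 (0.27), and Polr2f rose by 0.26 (edgeR adjusted p = 0.734), with the call lost without mouse 141 (0.25), 156 (0.20) or 181 (0.24). The lower subunit was Polr2a, the largest, at -0.21 (past the p limit but under the fold limit). In Polr2a, and in Polr2f, which was higher, the groups did not overlap, beside 4.16% of all genes tested.
Of 19 general transcription factor genes, 11 were higher and 8 lower (median 0.0024), and 2 were called, both higher, beside the same 2.64%. They were Gtf2h4 (0.33, edgeR adjusted p = 0.734), a TFIIH subunit called in 3 of the 8 fits without 1 mouse (0.28 to 0.42), and Gtf2e2 (0.45, edgeR adjusted p = 0.738), a TFIIE subunit called in 2 of them (0.34 to 0.56). Without mice 181 and 182 together, neither was called, with Gtf2h4 at 0.34 and Gtf2e2 at 0.45.

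Coactivators that work with Mediator had 8 of 10 genes lower (median -0.17), beside 52.1% lower over all genes tested, and none was called. In Ncoa6 (-0.20) and Ncoa1 (-0.16), both nuclear receptor coactivators, the groups did not overlap. Over all genes tested, 1.54% did not overlap with Mc1r LKO lower. Elongation kinases and the super elongation complex had 10 of 15 genes lower (median -0.04), and none was called, with Ell2 (0.30) and Cdk13 (-0.14) having the smallest p-values. Cohesin and its loader, which hold Mediator-bound enhancers to promoters, had 6 of 10 genes lower (median -0.01) and none called, with the smallest p-values at Mau2 (0.08) and Nipbl (-0.11).
Of 14 transcription factors known to bind Mediator subunits, 13 were tested, 8 higher and 5 lower (median 0.04), and 1 was called, beside 5.31% of all genes tested. This was Foxo1, the insulin-regulated forkhead factor, at 37.1, 30.6, 34.3 and 31.1 CPM in the control mice and 41.4, 42.8, 41.6 and 56.3 CPM in the Mc1r LKO mice, with every Mc1r LKO mouse above every control. Foxo1 rose by 0.45 (SE 0.12, 95% interval 0.19 to 0.72, edgeR adjusted p = 0.734) and was called in all 8 fits without 1 mouse (0.34 to 0.51).

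Markers of the liver's cell types were summed beside these values. The 6 hepatocyte markers, 0 of them lower, summed to between 71770 and 91350 CPM in control and 79340 and 102600 CPM in Mc1r LKO mice. No marker of any list was at 0 in every mouse. All 8 Kupffer cell and macrophage markers were lower, of which only Csf1r was called, with sums of 275 to 657 CPM in control and 190 to 403 CPM in Mc1r LKO mice. The 6 sinusoidal endothelial markers, 5 of them lower, summed to 173 to 214 and 128 to 204 CPM, the 6 stellate cell markers, 3 of them lower, to 235 to 412 and 222 to 378 CPM, the 5 cholangiocyte markers, with 0 of 4 tested lower, to 59.4 to 150 and 29.7 to 255 CPM, and the 6 lymphocyte markers, with 2 of 2 tested lower, to 9.74 to 27.7 and 10.1 to 15.3 CPM. All these ranges overlapped, as did the share of counts on mitochondrial genes, at 6.39 to 7.17% in control and 6.40 to 6.997% in Mc1r LKO mice. The part of these cell types in the values of the Mediator genes was not tested.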

How the data were processed

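Liver RNA of 4 control and 4 Mc1r LKO mice was prepared with a stranded mRNA kit. The authors deposited unnormalized counts, the number of read pairs assigned to each gene, in 1 table per mouse. The submitters' processing notes name Trim Galore 0.6.6, STAR 2.7.6a and Subread 2.0.1, and the table headers name featureCounts with strand option 2 and GRCm38 with Ensembl release 102, while the methods write a human build. Symbols matched 55141 of 55487 identifiers, and genes without one held at most 0.0408% of the counts.

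The 8 mice were grouped by the genotype label. Mouse numbers serve as replicate numbers and pair no mice. In R 4.3.3, the filterByExpr function (minimum count 10, minimum total count 15) kept 13400 genes, which were scaled by TMM. The quasi-likelihood test of edgeR 4.0.16 was fitted to all of them, with adjustment by Benjamini-Hochberg. The common biological coefficient of variation was 0.209. The fit was tested on simulated counts in which 200 genes were changed. These were drawn independently, without outlying mice or a trend with gene length, so the check does not cover those features. A count of 0 allows 3 counts, or 0.121 to 0.279 CPM, counting error only. Alternatives used DESeq2 1.42.0, limma 3.58.1 (voom), sva 3.50.0, other scalings and filters, and fits without each mouse or without 181 and 182, the last added after the data were seen. The members, lists and tests were chosen with earlier results of these data known. All 33 members are named, per-mouse values are given for the kinase module, for core genes past p 0.05 or without overlap and for the 2 highest and 2 lowest levels per kilobase, and genes of other lists are named where called, otherwise by the 2 smallest p-values. Polr2a, Il2rg, Foxo4 and Csf1r were named after their values were seen. Promoter sequences are from RefSeq (GRCm38.p6).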

Additional observations from a re-analysis of the deposited data

Results flagged for a closer look

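In 5 of 66 groups of 4 mice, 1 group for each Mediator gene and genotype, a single mouse stood apart from the other 3 by Dixon's 95% limit, where chance gives about 3.3. Control mouse 181 was the one that stood apart in 3 of them. It had 24.9 CPM of Med12, where the other controls had 19.5 to 20.2, and 34.9 CPM of Med13, where they had 27.5 to 27.9. It also had 15.3 CPM of Med7, where the other controls had 11.4 to 11.9. Control mouse 159 had 26.2 CPM of Med16, where the other controls had 23.4 to 23.7. Mc1r LKO mouse 141 had 11.9 CPM of Med6, where the other Mc1r LKO mice had 8.69 to 9.20. The causes were not tested.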

How the results depend on the processing

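Med12 was lower under every alternative run, with a log2 fold change between -0.55 and -0.50 over the 9 with all 8 mice and between -0.55 and -0.41 without single mice. For the other 32 genes, 518 of 576 checks kept direction and side of the limits, 20 lost the call, 13 gained it and 25 changed direction, none of these called before or after. With all 8 mice, the changed log2 fold changes were -0.014 (Med11), -0.019 (Med13), -0.012 (Med24) and -0.0040 (Med31) with library size only, -0.074 (Med13) and 0.028 (Med30) with 1 surrogate variable, and -0.036 (Med31) with limma-voom. With 1 mouse left out, or 181 and 182 together, the values ran on both sides of 0 in Med11 (-0.010 to 0.10), Med13 (-0.16 to 0.13), Med20 (-0.030 to 0.15), Med22 (-0.19 to 0.012), Med24 (-0.0028 to 0.081), Med26 (-0.20 to 0.018), Med30 (-0.0997 to 0.10), Med31 (-0.078 to 0.225) and Med4 (-0.0011 to 0.11). The number of Mediator genes called was 4, with Med12, whose counts chose the family, among them. It ranged from 1 (without mouse 159) to 7 (without mouse 181) when single mice were left out, with 2 called without mouse 154 or 193. The smaller sets were Med12 alone without 159, Med12 and Cdk19 without 154, and Med12 and Med16 without 193, and Med12l, Med6 and Med16 were added without 181. With all 7 genes, the median of the kinase module stayed between -0.24 and -0.094. The median of the core was 0.046. It was -0.00064 with library size as the only scaling, and it ranged from 0.036 to 0.083 without single mice, the highest without mouse 182, and was 0.090 without mice 181 and 182 together, an alternative chosen after seeing the data, as were the kinase module without Med12 and the coding transcript length. With a single transcript length or CPM alone in place of exon length, 5 and 3 of the 10 highest genes were shared. Counting Med27 to Med30 with the tail gave medians of 0.048 for the head and -0.026 for the tail. With 10 to 58 counts per mouse, Med12l and Med18 had the widest intervals. No paired analysis was possible because the groups share no replicate numbers.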
